A study of Mus musculus with 7 samples.

Results

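The 53 mouse genes described here encode the Eph receptors and their ephrin ligands, and the semaphorins with their plexin and neuropilin receptors. They were chosen by symbol, as Epha, Ephb, Efna, Efnb, Sema3 to Sema7, Plxna to Plxnd, Nrp1 and Nrp2, from the 55484 rows of a gene count table. The symbol rule uses no measured value, but earlier results of these data were known when it was set. Of these 53 genes, 22 are Eph receptors or ephrins and 31 are semaphorins, plexins or neuropilins.

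The levels were compared between mouse embryonic fibroblasts (MEFs, cells grown from the connective tissue of the embryo) and mouse embryonic stem cells (mESCs, pluripotent cells grown from the early embryo). There were 4 MEF and 3 mESC RNA-seq libraries, all labelled as C57/Bl6 background and none as treated. The labels give no age, sex, passage or medium and do not say whether the libraries of a cell type came from separate cultures. The study describes its transcriptional data as 3 biological replicates, whereas 4 MEF libraries are compared here. Which libraries are separate cultures is thus not known. The p-values measure the spread between these libraries, part of which may be technical. The MEF libraries held 11441278, 9176467, 7312679 and 6528643 counts and the mESC libraries held 8193825, 8057985 and 7462710 counts. All values per library below follow this order.

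Eph receptors are receptor tyrosine kinases that bind ephrins on the surface of a neighbouring cell, and signals pass into both cells. Ephrin-A ligands are held in the membrane by a lipid anchor and ephrin-B ligands span it. Semaphorins of class 3 are secreted and bind neuropilins, which pair with A plexins to signal, whereas classes 4 to 6 span the membrane and mostly bind plexins directly. Both systems are best known for guiding axons, sorting cells at tissue boundaries and shaping blood vessels.

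The 15 pluripotency markers tested were all higher in mESCs and the 18 fibroblast markers were all lower, as the labels of the cell types would have it. The MEF libraries differed among themselves. Those of 11441278 and 7312679 counts did not overlap with those of 9176467 and 6528643 counts in 22 of the 46 tested genes described here (47.8%), and in 44.2% of all genes tested. The other ways of splitting the 4 libraries into pairs gave 26.1% and 26.1% here, and 28.2% and 26.6% over all genes. Ddx3y, a gene of the Y chromosome, had 1.53 and 0.152 CPM (counts after scaling for library size) in the first pair and 52.4 and 48.3 CPM in the second, and 0.759, 1.14 and 6.72 CPM in the mESC libraries. The labels do not describe this difference. Without the first pair 4 of the genes described here were higher and 26 lower in mESCs, and without the second pair 4 and 21. The share of all genes called in these fits was not computed, so these counts have no background to be read against. Of the 22 genes, 19 (86.4%) were higher in the libraries of 9176467 and 6528643 counts, compared with 51.04% of all genes that differed this way. Among the 19 were Ephb2, Ephb3, Ephb4, Ephb6, Epha3, Nrp1 and Sema5a, whereas Efnb2, Sema3a and Sema3e were higher in the other pair.

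Most of these genes were lower in mESCs than in MEFs. Enough counts for a test were present for 46 genes, and 26 of them (56.5%) were lower in mESCs while 5 (10.9%) were higher, by edgeR's quasi-likelihood test at an adjusted p of 0.05. Among all 16580 genes tested, 25.0% were lower and 22.8% higher, so 47.9% were called in all. The median log2 fold change of mESCs over MEFs was -1.48 over the 46 genes and 0.04 over all genes tested. When tested against a fold change of 2, 17 of the 46 were lower and 4 higher, where all genes gave 13.7% and 10.3%. The libraries of both cell types did not overlap for 30 of the 46 genes (24 higher in MEFs, 6 in mESCs), beside 52.1% of all genes. Among the Eph receptors and ephrins 13 of 18 tested genes were lower and 1 was higher, and among the semaphorins, plexins and neuropilins 13 of 28 were lower and 4 higher. These are bulk libraries, in which fewer cells of a type and less RNA per cell cannot be told apart. Scaling by library size alone moved the median of all genes from 0.04 to 0.32 and gave 21 lower and 6 higher genes, and 60.8% of all calls were then higher in mESCs, compared with 47.7% under TMM scaling. Only 3 prime ends were counted, so levels are not compared between genes.

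**Figure D1:**
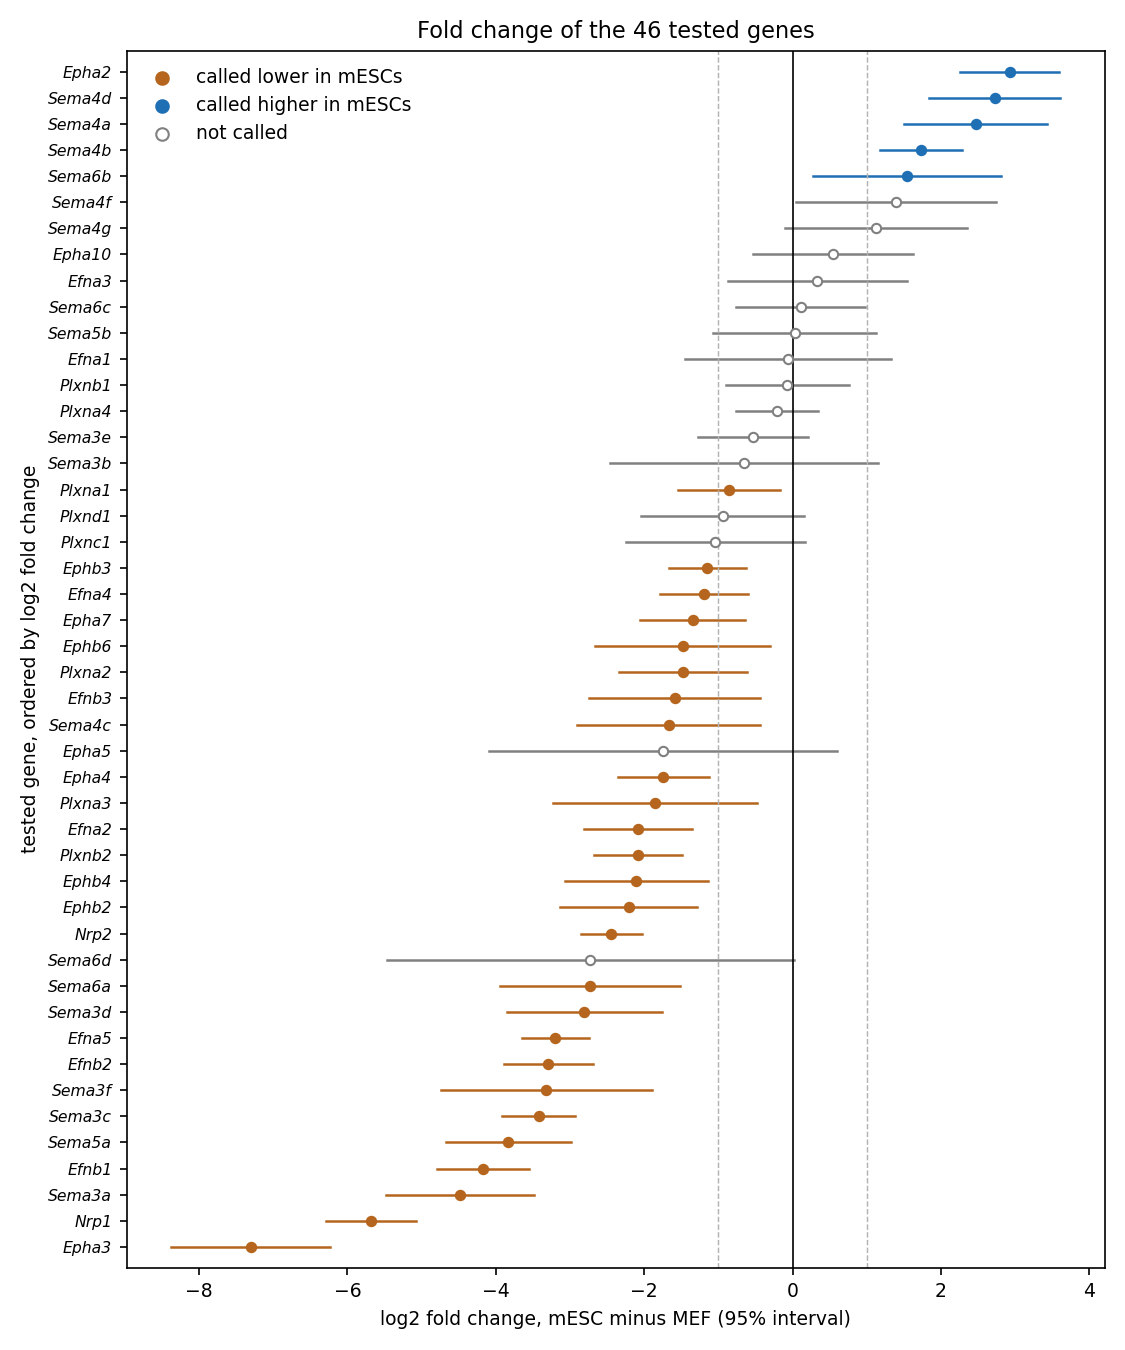
Fitted log2 fold changes of mESCs over MEFs for the 46 tested genes, with 95% intervals and dashed lines at a fold change of 2 in either direction. Of the 46 points, 26 were called lower and 5 higher, and the largest differences were those of Epha3 (-7.31) on the lower side and Epha2 (2.93) on the higher side.

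All 8 ephrin ligand genes were tested. Of these, 6 were lower in mESCs and 0 were higher, with edgeR at an adjusted or an unadjusted p of 0.05 and also with DESeq2. The lower share was 75%, beside 25.0% of all genes tested, of which 22.8% were higher. Efnb1 (chromosome X, 99136130-99148991, plus strand), a transmembrane ligand encoded on the X chromosome, had 92.3, 119, 82.9 and 102 CPM in the MEF libraries and 7.15, 5.91 and 3.30 CPM in the mESC libraries. Each MEF library lay far above each mESC library (log2 fold change -4.17, SE 0.28, adjusted p = 9.04e-07). Efnb2 (chromosome 8, 8617434-8661242, minus strand), the ligand that marks arterial endothelium, stood at 79.9, 70.3, 82.3 and 59.95 CPM in MEFs and 5.42, 6.25 and 10.7 CPM in mESCs. The MEF libraries were again all higher (log2 fold change -3.29, SE 0.27, adjusted p = 3.72e-06). Efna5 (chromosome 17, 62604184-62881317, minus strand), a lipid-anchored ligand of EphA receptors, was measured at 215, 285, 184 and 269 CPM in MEFs and at 23.3, 25.2 and 29.3 CPM in mESCs, without overlap (log2 fold change -3.20, SE 0.20, adjusted p = 6.40e-07).

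The 250 bases before the RefSeq start sites (GRCm38.p6) of Efnb1 and Efnb2 are printed because these were the ephrins with the largest differences. Sequences run 5′ to 3′ on the strand of the gene, and capitals mark any match to the motifs that are described with the promoters further on.
Efnb1 (chrX:99135811-99136060, plus strand): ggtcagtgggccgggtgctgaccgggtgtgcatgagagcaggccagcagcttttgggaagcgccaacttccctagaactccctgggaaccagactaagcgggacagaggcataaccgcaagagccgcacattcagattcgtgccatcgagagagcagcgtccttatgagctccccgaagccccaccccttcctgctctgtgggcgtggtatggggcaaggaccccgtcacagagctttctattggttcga
Efnb2 (chr8:8661243-8661492, minus strand): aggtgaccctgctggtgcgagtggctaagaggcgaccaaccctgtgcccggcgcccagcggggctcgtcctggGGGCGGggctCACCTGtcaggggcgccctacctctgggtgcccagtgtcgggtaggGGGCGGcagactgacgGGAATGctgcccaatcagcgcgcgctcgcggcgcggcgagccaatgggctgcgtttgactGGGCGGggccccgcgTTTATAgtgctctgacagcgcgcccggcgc
The Efnb1 window held none of the motifs searched, while the Efnb2 window held several.

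The other ephrins differed less. Efna2 averaged 22.1 ± 5.33 CPM in MEFs and 5.23 ± 1.94 CPM in mESCs (SD, n = 4 and n = 3; log2 fold change -2.08, SE 0.33, adjusted p = 4.06e-04) and Efna4 19.5 ± 4.89 CPM in MEFs and 8.52 ± 0.465 CPM in mESCs (log2 fold change -1.19, SE 0.27, adjusted p = 0.00395). Of the exonic bases of Efna4, 10.5% overlap the antisense gene 4731419I09Rik, and the strand setting of the counting is not given in the sources used here. Efnb3 had 4.51, 6.71, 3.20 and 7.32 CPM in MEFs and 0.975, 1.36 and 3.07 CPM in mESCs (log2 fold change -1.59, SE 0.52, adjusted p = 0.0272). This call was lost when either of the MEF libraries of 9176467 or 6528643 counts or the mESC libraries of 8193825 or 8057985 counts was left out (adjusted p = 0.0602 to 0.0944), and the log2 fold change became -2.21 without the mESC library of 7462710 counts. Scaling by library size alone also lost the call (adjusted p = 0.0595).

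Efna1 and Efna3 were not called. Efna1 had 1.06, 3.60, 1.22 and 5.88 CPM in MEFs and 3.47, 1.93 and 2.95 CPM in mESCs, so that the mESC values lay within the range of the MEF values (log2 fold change -0.06, 95% interval -1.45 to 1.33, adjusted p = 0.946). Efna3 had 2.69, 2.16, 2.13 and 2.23 CPM and 5.09, 1.02 and 2.60 CPM in the same order (log2 fold change 0.33, 95% interval -0.87 to 1.54, adjusted p = 0.654), and 14.1% of its exonic bases overlap the antisense gene Gm15998. The sign of both fold changes depended on which library was left out, and Efna3 became -0.35 without the mESC library of 8193825 counts. Efna1, Efna3 and Efna4 lie next to each other on chromosome 3, with gaps of 32756 and 10424 bases.

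The EphA receptors differed in both directions. Of the 9 genes, 6 were tested, of which 3 were lower (50%) and 1 was higher (16.7%) in mESCs. Among all genes tested these shares were 25.0% and 22.8%. Epha3 (chromosome 16, 63543534-63864175, minus strand), a receptor with preference for ephrin-A5, had 22.5, 49.01, 33.4 and 48.2 CPM in the MEF libraries and 0.217, 0.114 and 0.354 CPM in the mESC libraries, where these stand for 2, 1 and 3 counts. All mESC libraries were at or below the floor of 3 counts, and all MEF libraries were far above it. Before TMM scaling this floor was 0.262 to 0.460 CPM over the libraries of both cell types (counting error only). Pooled over libraries, 1166 counts in MEFs against 6 in mESCs gave a ratio of 163, with a 95% counting interval of 74.6 to 445. Epha3 was also higher in the MEF libraries of 9176467 and 6528643 counts than in the other pair. The fitted value was -7.31 (SE 0.48, adjusted p = 8.02e-07), which near the floor depends on the prior count.

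Epha2 (chromosome 4, 141301240-141329384, plus strand), a receptor known from epithelia and from mouse pluripotent cells, was the Eph gene that was higher in mESCs. Its levels were 7.77, 8.39, 9.30 and 3.82 CPM in MEFs and 73.6, 47.04 and 47.2 CPM in mESCs. Every mESC library exceeded every MEF library (log2 fold change 2.93, SE 0.30, adjusted p = 1.90e-05). The bases before the start sites of Epha3 and Epha2, the Eph receptors with the largest difference in each direction, were as follows.
Epha3 (chr16:63864176-63864425, minus strand): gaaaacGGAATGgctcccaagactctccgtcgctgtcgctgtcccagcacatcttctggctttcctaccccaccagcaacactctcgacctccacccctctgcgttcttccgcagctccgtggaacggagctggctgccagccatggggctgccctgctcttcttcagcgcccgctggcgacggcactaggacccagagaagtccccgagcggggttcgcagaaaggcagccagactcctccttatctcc
Epha2 (chr4:141300971-141301220, plus strand): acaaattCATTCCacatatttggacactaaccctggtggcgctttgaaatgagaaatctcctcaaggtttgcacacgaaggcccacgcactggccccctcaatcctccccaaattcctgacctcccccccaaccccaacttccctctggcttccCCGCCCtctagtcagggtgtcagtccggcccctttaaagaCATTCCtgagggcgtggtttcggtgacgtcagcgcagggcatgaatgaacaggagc
The window of Epha3 held 1 match to the motif GGAATG, and that of Epha2 held matches to GGAATG and GGGCGG.

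Epha4, a receptor that binds ephrins of both classes, had 41.1, 55.2, 45.6 and 57.4 CPM in MEFs and 10.1, 21.9 and 12.6 CPM in mESCs, with no overlap (log2 fold change -1.74, SE 0.28, adjusted p = 4.43e-04). Epha7 averaged 15.03 ± 4.01 CPM in MEFs and 5.92 ± 1.68 CPM in mESCs (log2 fold change -1.35, SE 0.32, adjusted p = 0.00540). Epha5 had 2.49, 2.76, 0.152 and 4.45 CPM in MEFs and 0.542, 0 and 1.65 CPM in mESCs, and Epha10, which lacks kinase activity, had 2.69, 1.08, 1.37 and 1.91 CPM and 3.03, 2.16 and 2.60 CPM. For both, the libraries of the cell types overlapped, and neither was called (Epha5, log2 fold change -1.74, 95% interval -4.09 to 0.60, adjusted p = 0.205; Epha10, log2 fold change 0.55, 95% interval -0.54 to 1.63, adjusted p = 0.395). Without the mESC library of 7462710 counts the value of Epha5 became -3.10 (adjusted p = 0.0914).

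Epha1, Epha6 and Epha8 had too few counts for a test. Epha1 reached 34, 7, 11 and 2 counts in MEFs and 2, 2 and 4 in mESCs, and 6.01% of its exonic bases overlap the antisense gene Zyx. Epha8 had 0, 1, 0 and 0 counts in MEFs and 4, 0 and 2 counts in mESCs, which pooled to a ratio of 7.16 in favour of mESCs with a 95% counting interval of 0.868 to 329. Epha6 did not exceed 3 counts in any library. A difference of Epha6 or Epha8 was not detectable at this depth.

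The 4 tested EphB receptors, which mainly bind ephrin-B ligands, were all lower in mESCs, beside 25.0% of all genes tested. Ephb2 had 15.7, 35.4, 22.4 and 48.5 CPM in MEFs and 4.23, 8.75 and 6.72 CPM in mESCs. All MEF libraries were above all mESC libraries, though the MEF values ranged widely, and the libraries of 9176467 and 6528643 counts were the highest (log2 fold change -2.21, SE 0.42, adjusted p = 0.00127). Ephb4, the receptor that marks venous endothelium, had 9.59, 16.7, 10.98 and 29.7 CPM and 2.93, 4.54 and 4.13 CPM (log2 fold change -2.11, SE 0.44, adjusted p = 0.00231). Ephb3 had 34.8, 42.2, 35.7 and 52.3 CPM in MEFs and 23.3, 14.4 and 18.1 CPM in mESCs (log2 fold change -1.15, SE 0.23, adjusted p = 0.00209). The same pair of MEF libraries was highest for both, and neither overlapped between cell types.

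Ephb6, a receptor without kinase activity, had 3.93, 4.43, 2.74 and 8.43 CPM in MEFs and 1.30, 2.73 and 1.18 CPM in mESCs (log2 fold change -1.48, SE 0.53, adjusted p = 0.0407). The lowest MEF library was only just above the highest mESC library. The call was lost without the MEF library of 9176467 or 6528643 counts or the mESC library of 8193825 or 7462710 counts (adjusted p = 0.0594 to 0.127). It was also lost when scaled by library size alone (adjusted p = 0.0817). Ephb1 was not tested, with 9, 8, 2 and 6 counts in MEFs and 11, 6 and 2 counts in mESCs, where both cell types spanned the floor.

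**Figure D2:**
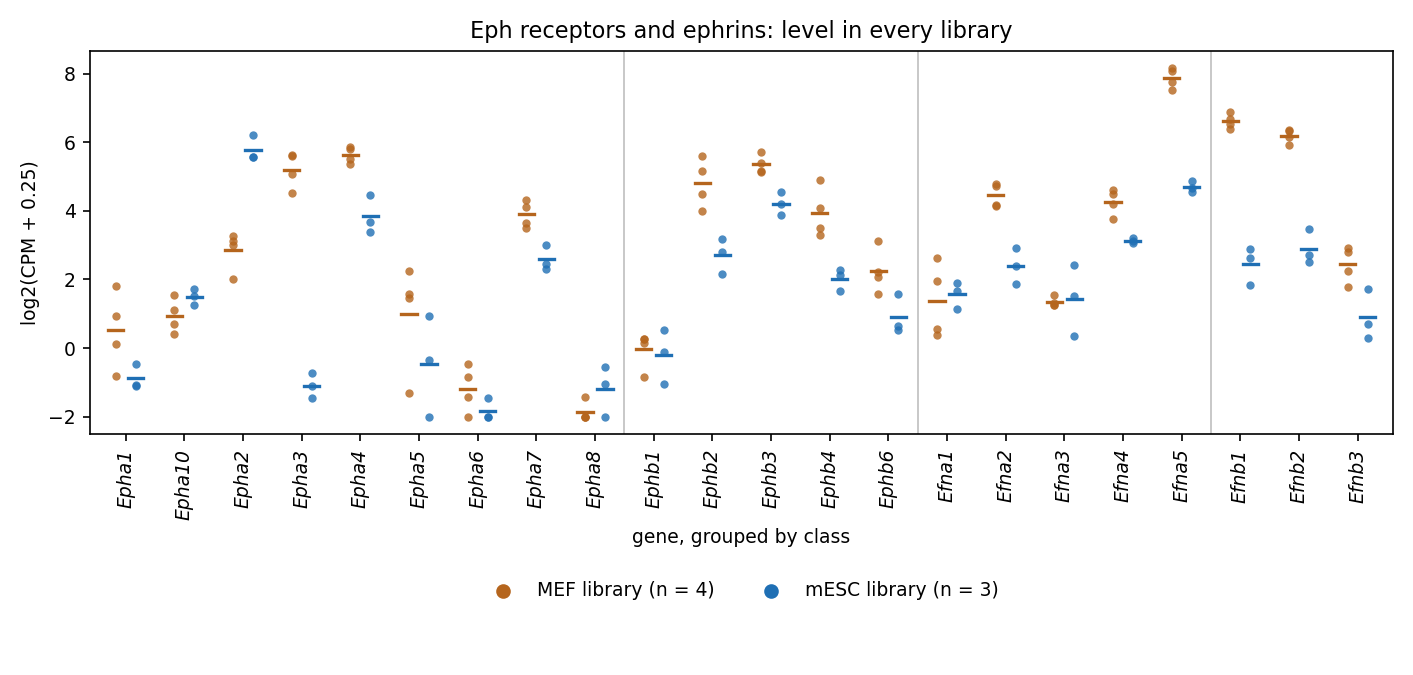
CPM of the Eph receptor and ephrin genes in each library, drawn as log2(CPM + 0.25), with 4 MEF and 3 mESC points per gene and lines at their means. The points of Epha3 for mESCs sit at 0.217, 0.114 and 0.354 CPM, below all MEF points, and those of Epha2 lie above all MEF points.

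Both neuropilins, the binding receptors of class 3 semaphorins, were lower in mESCs. Nrp1 (chromosome 8, 128358604-128503363, plus strand), which also binds VEGF-A, had 73.5, 91.8, 73.2 and 83.7 CPM in the MEF libraries and 0.975, 2.05 and 1.65 CPM in the mESC libraries. The MEF libraries lay close together and far above the mESC libraries (log2 fold change -5.68, SE 0.27, adjusted p = 9.44e-08). Nrp2 (chromosome 1, 62703285-62818695, plus strand), which prefers Sema3F, had 117, 158, 145 and 152 CPM in MEFs and 22.1, 30.7 and 26.2 CPM in mESCs. This was also a difference without overlap (log2 fold change -2.44, SE 0.19, adjusted p = 2.25e-06). The 11 endothelial markers summed to 222 to 306 CPM in MEFs and 115 to 152 CPM in mESCs, with 3 higher (Egfl7, Pecam1 and Vwf) and 2 lower (Flt1 and Erg) in mESCs of 7 tested. Flt1, a VEGF receptor, made up 173 to 255 CPM of the MEF sums and 2.36 to 6.14 CPM of the mESC sums, and the other 10 markers summed to 48.98 to 56.1 CPM in MEFs and 111 to 146 CPM in mESCs. Of these 10, the largest count in a MEF library was 193 for Egfl7, 174 for Emcn, 112 for Vwf and 56 for Tek. It was 24 for Erg and for Pecam1, 20 for Cdh5, 7 for Tie1 and 1 for Cldn5 and for Esam. The part of endothelial cells in the levels of the neuropilins was not tested.

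The bases before the start site of Nrp1 are shown because it was the receptor of the semaphorin system with the largest difference, and they held 1 match to GGGCGG. In GENCODE M21 the window lies in an intron of another Nrp1 isoform that starts further upstream.
Nrp1 (chr8:128358823-128359072, plus strand): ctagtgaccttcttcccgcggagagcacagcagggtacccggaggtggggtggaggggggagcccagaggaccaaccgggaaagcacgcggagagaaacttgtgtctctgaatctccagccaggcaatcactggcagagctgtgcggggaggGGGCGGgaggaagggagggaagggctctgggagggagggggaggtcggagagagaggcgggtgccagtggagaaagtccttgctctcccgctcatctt

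Of the 9 plexins, the signalling receptors for semaphorins, 8 were tested, and 4 of these were lower in mESCs and 0 higher, with edgeR at an adjusted or an unadjusted p of 0.05 and also with DESeq2. The called share of 50% was near the 47.9% of all genes, of which 25.0% were lower and 22.8% higher. Plxnb2 (chromosome 15, 89155549-89180788, minus strand), a receptor for Sema4C, had 53.7, 55.96, 87.5 and 70.5 CPM in MEFs and 18.8, 18.2 and 10.3 CPM in mESCs. It was higher in every MEF library than in any mESC library (log2 fold change -2.08, SE 0.27, adjusted p = 9.86e-05). Plxna2 averaged 10.04 ± 2.88 CPM in MEFs and 3.58 ± 1.34 CPM in mESCs (SD, n = 4 and n = 3; log2 fold change -1.48, SE 0.39, adjusted p = 0.00925).

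Plxna3 and Plxna1, which pair with neuropilins, were called lower with less margin. Plxna3 (chromosome X, 74329066-74344689, plus strand) had 3.65, 7.31, 1.83 and 11.6 CPM in MEFs and 1.19, 1.93 and 1.89 CPM in mESCs (log2 fold change -1.85, SE 0.62, adjusted p = 0.0297). The MEF library of 7312679 counts was within the mESC range, and the call was lost without the MEF library of 9176467 or 6528643 counts or without any of the mESC libraries (adjusted p = 0.0618 to 0.0979). It was also lost when scaled by library size alone (adjusted p = 0.0537). Plxna1 had 23.5, 24.9, 24.7 and 18.6 CPM in MEFs and 11.8, 18.9 and 7.31 CPM in mESCs (log2 fold change -0.86, SE 0.31, adjusted p = 0.0413). Its call was lost without the MEF libraries of 11441278, 9176467 or 7312679 counts or the mESC libraries of 8193825 or 7462710 counts (adjusted p = 0.0714 to 0.123), and 10.7% of its exonic bases overlap the antisense gene Gm26811. Scaling by library size alone also lost the call of Plxna1 (adjusted p = 0.129).

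The remaining plexins were not called. Plxna4 had 40.1, 48.7, 31.6 and 41.8 CPM in MEFs and 29.7, 25.9 and 49.3 CPM in mESCs, with one mESC library above all MEF libraries (log2 fold change -0.21, 95% interval -0.76 to 0.34, adjusted p = 0.519). Plxnb1, a receptor for Sema4D, had 4.99, 5.99, 5.34 and 3.34 CPM and 4.66, 3.41 and 6.02 CPM (log2 fold change -0.07, 95% interval -0.90 to 0.76, adjusted p = 0.897). Without TMM scaling the fold changes of both turned positive. Plxnc1, the receptor for Sema7A, averaged 4.87 ± 1.55 CPM in MEFs and 2.35 ± 1.67 CPM in mESCs (log2 fold change -1.04, 95% interval -2.25 to 0.17, adjusted p = 0.144), and it was called lower, with a log2 fold change of -1.73, without the mESC library of 8193825 counts (adjusted p = 0.0421). Plxnd1, the receptor for Sema3E, averaged 5.40 ± 2.59 CPM in MEFs and 2.78 ± 1.0 CPM in mESCs (log2 fold change -0.94, 95% interval -2.05 to 0.16, adjusted p = 0.146). Plxnb3 was not tested, with 2, 5, 1 and 1 counts in MEFs and 17, 0 and 2 counts in mESCs, and 1 mESC library held most of them.

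Of the 7 class 3 semaphorins, which are secreted, 6 were tested, and 4 were lower in mESCs and 0 higher with edgeR (0 at an unadjusted p of 0.05 and 0 with DESeq2). The lower share was 66.7%, beside 25.0% of all genes tested, of which 22.8% were higher. Sema3a (chromosome 5, 13125414-13602565, plus strand), a repellent ligand that binds Nrp1, had 30.3, 15.9, 30.6 and 16.2 CPM in MEFs and 0.542, 1.02 and 1.53 CPM in mESCs. The MEF libraries of 11441278 and 7312679 counts were the higher pair, and all were above the mESC libraries (log2 fold change -4.49, SE 0.45, adjusted p = 1.67e-05). Sema3c (chromosome 5, 17574281-17730268, plus strand) had 48.5, 53.6, 54.4 and 48.5 CPM and 4.34, 3.98 and 6.02 CPM, and its MEF libraries lay close together (log2 fold change -3.42, SE 0.22, adjusted p = 6.95e-07). Sema3d had 4.60, 5.87, 6.40 and 10.97 CPM in MEFs and 1.19, 0.795 and 0.944 CPM in mESCs (log2 fold change -2.80, SE 0.47, adjusted p = 6.18e-04). Sema3f, the ligand of Nrp2, had 3.26, 6.95, 7.16 and 13.5 CPM in MEFs and 0.542, 1.36 and 0.354 CPM in mESCs (log2 fold change -3.32, SE 0.64, adjusted p = 0.00151), and its log2 fold change became -4.05 without the mESC library of 8057985 counts. Neither Sema3d nor Sema3f overlapped between the cell types.

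The window before the start site of Sema3a, the semaphorin with the largest difference, held none of the motifs searched and had 40.8% G and C bases, the lowest share among the windows found. It precedes 1 of several annotated starts of Sema3a and lies in an intron of isoforms that start further upstream.
Sema3a (chr5:13396534-13396783, plus strand): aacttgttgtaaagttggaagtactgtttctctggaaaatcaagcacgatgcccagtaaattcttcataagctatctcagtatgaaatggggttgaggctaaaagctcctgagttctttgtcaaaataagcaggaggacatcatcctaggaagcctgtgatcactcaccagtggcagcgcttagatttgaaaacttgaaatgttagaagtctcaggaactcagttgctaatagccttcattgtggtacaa

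Sema3e and Sema3b were not called. Sema3e averaged 12.2 ± 3.98 CPM in MEFs and 8.42 ± 2.01 CPM in mESCs (SD, n = 4 and n = 3; log2 fold change -0.53, 95% interval -1.27 to 0.21, adjusted p = 0.220) and Sema3b 1.80 ± 1.42 CPM in MEFs and 1.11 ± 0.981 CPM in mESCs (log2 fold change -0.65, 95% interval -2.45 to 1.15, adjusted p = 0.550). Without the mESC library of 8193825 counts Sema3b became -1.58 (adjusted p = 0.241). Sema3g, which was not tested, had 6, 9, 6 and 2 counts in MEFs and 3, 0 and 2 counts in mESCs. Pooled, this was a ratio of 3.86 in favour of MEFs with a 95% counting interval of 1.43 to 12.99, which covers counting error only. Sema3d, Sema3a and Sema3e lie in a row on chromosome 5 with gaps of 536465 and 422710 bases, and their fold changes were -2.80, -4.49 and -0.53.

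Class 4 semaphorins, which span the membrane and are known from lymphocytes and epithelia as well as neurons, were the class with the most genes higher in mESCs. Of 6 genes tested, 3 were higher (50%) and 1 lower (16.7%), beside 22.8% and 25.0% of all genes. Sema4d (chromosome 13, 51685529-51793747, minus strand), the ligand of Plxnb1, had 0.959, 1.56, 1.52 and 1.11 CPM in MEFs and 10.4, 9.32 and 5.90 CPM in mESCs. The MEF libraries were low throughout and did not reach the mESC levels (log2 fold change 2.72, SE 0.40, adjusted p = 2.49e-04). Sema4a (chromosome 3, 88435959-88461182, minus strand) had 1.34, 0.719, 1.52 and 1.75 CPM in MEFs and 7.48, 5.23 and 9.44 CPM in mESCs (log2 fold change 2.47, SE 0.43, adjusted p = 8.40e-04). Sema4b (chromosome 7, 80186841-80226527, plus strand) had 42.8, 35.5, 24.7 and 22.6 CPM in MEFs and 109, 127 and 78.5 CPM in mESCs (log2 fold change 1.73, SE 0.25, adjusted p = 2.25e-04). For Sema4a and Sema4b all mESC libraries were above all MEF libraries.

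Sema4c, the ligand of Plxnb2, went the other way, with 6.72, 8.63, 8.08 and 12.7 CPM in MEFs and 5.64, 0.909 and 1.89 CPM in mESCs (log2 fold change -1.67, SE 0.56, adjusted p = 0.0293). The mESC library of 8193825 counts was close to the lowest MEF library. Without it the log2 fold change became -2.68, and the call was lost without the MEF library of 6528643 counts or the mESC library of 8057985 or 7462710 counts (adjusted p = 0.0677 to 0.0959). Scaling by library size alone also lost the call of Sema4c (adjusted p = 0.0587). Of its exonic bases, 7.27% overlap the antisense gene D430040D24Rik. Sema4f averaged 0.701 ± 0.289 CPM in MEFs and 1.83 ± 0.802 CPM in mESCs (log2 fold change 1.39, 95% interval 0.05 to 2.74, adjusted p = 0.0817), with all mESC libraries above all MEF libraries. Its call was gained without TMM scaling (log2 fold change 1.68, adjusted p = 0.0407). Sema4g averaged 2.13 ± 0.955 CPM in MEFs and 4.64 ± 3.18 CPM in mESCs and overlapped (log2 fold change 1.12, 95% interval -0.10 to 2.35, adjusted p = 0.120), and its log2 fold change became 0.40 without the mESC library of 8057985 counts.

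Marker lists of epithelial, neural and macrophage cells were summed beside these genes. The 12 epithelial and keratinocyte markers summed to 179 to 215 CPM in MEFs and 477 to 528 CPM in mESCs (3 higher and 1 lower of 11 tested), and the 12 neuron and glia markers to 180 to 223 CPM and 659 to 744 CPM (4 higher and 3 lower of 9 tested). Few genes carried these sums. Without Cdh1 and Epcam, the epithelial list summed to 166 to 199 CPM in MEFs and 144 to 170.1 CPM in mESCs, and without Stmn2 the neural list summed to 98.4 to 154 CPM and 82.5 to 100.4 CPM. The 11 macrophage markers summed to 25.2 to 75.5 CPM in MEFs and 24.5 to 31.3 CPM in mESCs, with 1 higher and 1 lower of 6 tested. The part of such cells in the levels of the class 4 semaphorins was not tested.

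Class 5 semaphorins carry thrombospondin repeats. Sema5a (chromosome 15, 32244810-32696341, plus strand) had 42.98, 69.9, 36.1 and 77.8 CPM in MEFs and 2.71, 5.79 and 3.42 CPM in mESCs. Its MEF libraries of 9176467 and 6528643 counts were the highest, and none overlapped with mESCs (log2 fold change -3.83, SE 0.38, adjusted p = 1.47e-05). Sema5b, by contrast, had 3.55, 4.91, 1.37 and 6.36 CPM in MEFs and 3.90, 3.41 and 5.07 CPM in mESCs, which lay within the MEF range (log2 fold change 0.03, 95% interval -1.07 to 1.12, adjusted p = 0.968). The fold changes of both genes were not tested against each other.

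Class 6 semaphorins are transmembrane ligands of A plexins. Sema6a, on chromosome 18, had 25.5, 39.1, 16.2 and 20.4 CPM in MEFs and 5.42, 0.795 and 5.19 CPM in mESCs, without overlap (log2 fold change -2.73, SE 0.55, adjusted p = 0.00192). Sema6b was higher in mESCs, with 0.288, 0.719, 0.610 and 0.477 CPM in MEFs and 1.84, 1.59 and 1.18 CPM in mESCs (log2 fold change 1.55, SE 0.57, adjusted p = 0.0453). All its mESC libraries were above all MEF libraries, but the MEF libraries were near the floor. This call was lost without the MEF library of 11441278, 7312679 or 6528643 counts or without any of the mESC libraries (adjusted p = 0.0534 to 0.165), and also with DESeq2 (adjusted p = 0.0921). With no filter beyond 1 count it was lost as well (adjusted p = 0.260).

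Sema6c had 8.35, 6.83, 15.1 and 17.02 CPM in MEFs and 7.48, 16.5 and 14.04 CPM in mESCs, with wide overlap (log2 fold change 0.11, 95% interval -0.76 to 0.97, adjusted p = 0.846). Sema6d had 3.55, 3.24, 0 and 6.84 CPM in MEFs and 0, 0.227 and 1.30 CPM in mESCs (log2 fold change -2.73, 95% interval -5.47 to 0.01, adjusted p = 0.0939). The MEF library of 7312679 counts had 0 counts of Sema6d, and without it the gene was called lower (-3.14 on the log2 scale, adjusted p = 0.0186), as it was without the mESC library of 7462710 counts (-4.76, adjusted p = 0.0418). Sema7a, the lipid-anchored class 7 semaphorin, was not tested, with 7, 7, 0 and 0 counts in MEFs and 1, 6 and 5 counts in mESCs.

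**Figure D3:**
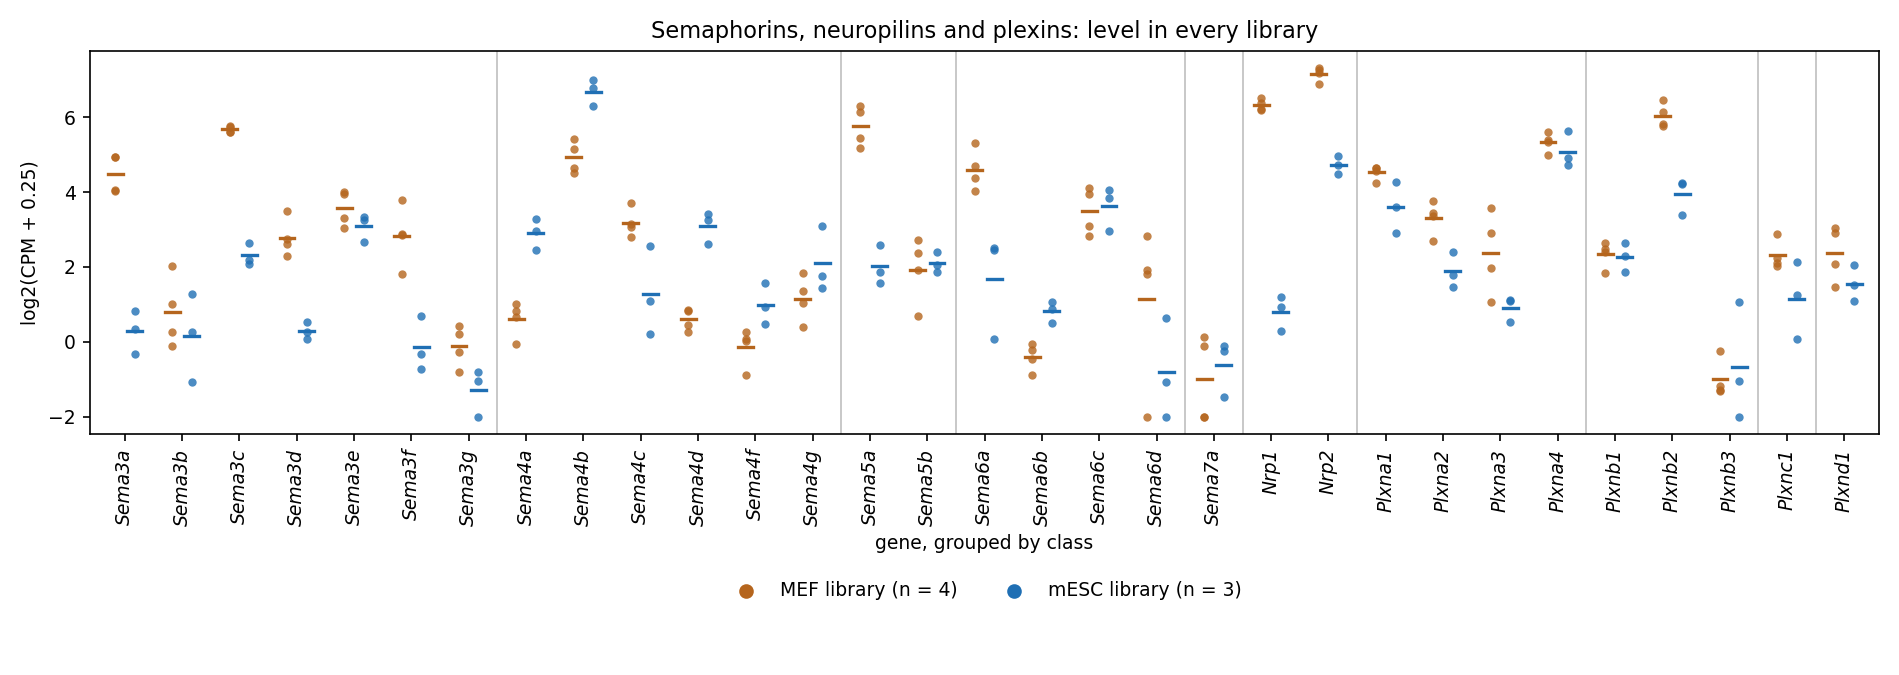
CPM of the semaphorin, plexin and neuropilin genes in each library, drawn as log2(CPM + 0.25), with 4 MEF and 3 mESC points per gene and lines at their means. The mESC points lie below the MEF points for Nrp1, Sema3a and Sema5a and above them for Sema4a, Sema4b and Sema4d.

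The summed levels of the classes describe the same split. The 53 genes together made up 1181 to 1449 CPM in MEFs and 426 to 470.4 CPM in mESCs. Ephrin-B ligands summed to 168 to 196 CPM in MEFs and 13.5 to 17.1 CPM in mESCs, neuropilins to 191 to 249.97 and 23.1 to 32.7 CPM, and ephrin-A ligands to 218 to 336 and 43.5 to 46.7 CPM. Class 3 semaphorins summed to 93.95 to 119 CPM in MEFs and 13.5 to 19.9 CPM in mESCs. In these classes all MEF libraries were above all mESC libraries. EphA receptors as a class were closer, at 99.6 to 134 CPM in MEFs and 69.8 to 93.3 CPM in mESCs. A plexins summed to 68.8 to 90.95 and 45.2 to 63.6 CPM. Class 4 semaphorins were the only class with the mESC libraries above the MEF libraries, at 99.8 to 151 CPM compared with 37.7 to 54.4 CPM. Single genes carried much of some sums. Sema4b had 78.5 to 127 CPM in mESCs and 22.6 to 42.8 CPM in MEFs. Epha2 had 47.04 to 73.6 CPM in mESCs, and Efna5 had 184 to 285 CPM in MEFs.

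**Figure D4:**
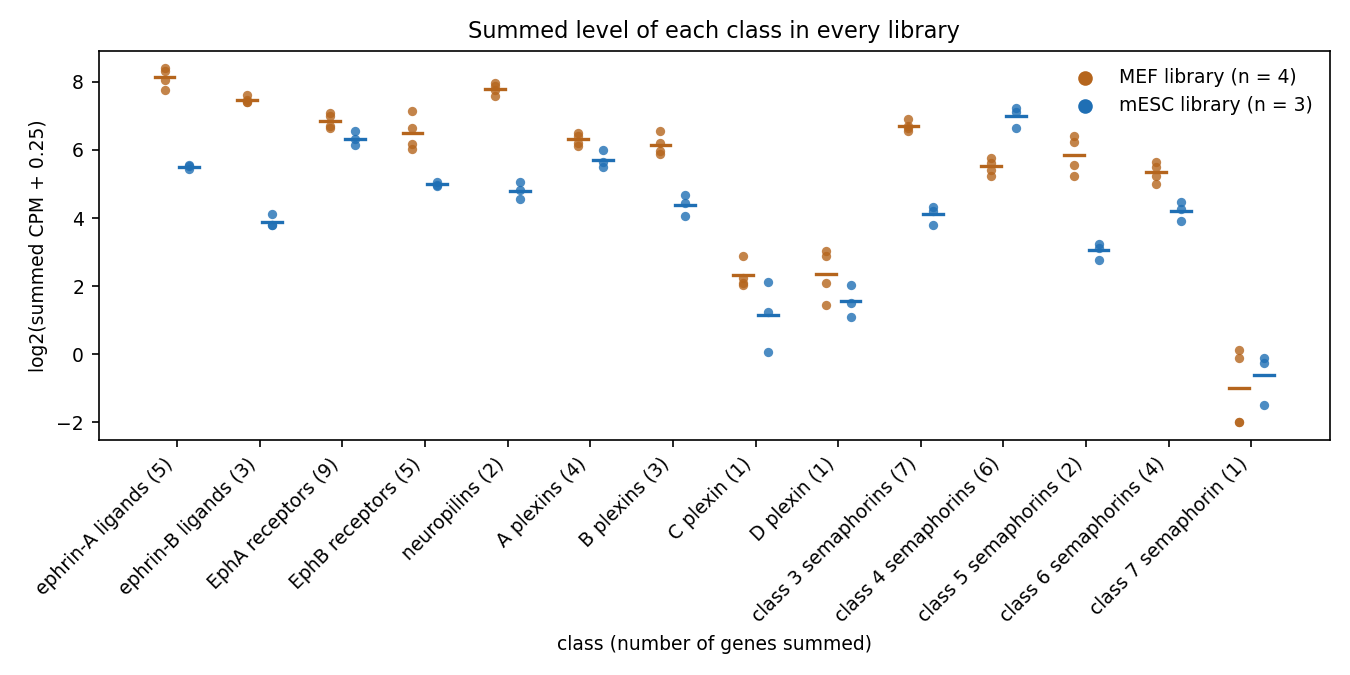
Summed CPM of each gene class per library, drawn as log2(CPM + 0.25), with 4 MEF and 3 mESC points per class and lines at their means. Class 4 semaphorins are the only class with all mESC points (up to 151 CPM) above all MEF points. Ephrin-B ligands show the widest gap in the other direction, with a ratio of the MEF to the mESC mean of 12.1.

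Promoter windows of 250 bases, the first listed for each gene, were found in the RefSeq table for 47 of the 53 genes. Some overlap annotated exons, those of Epha10, Plxna2, Plxnb1, Sema3c and Sema4c over all 250 bases. Others, among them those of Epha2, Nrp1 and Sema3a, overlap none. The shares below include exonic bases. The median G and C content of the 47 windows was 64.4%, compared with 59.6% for the 11001 windows of tested genes and 52% for all 27025 windows. The letters GGGCGG, the GC box of SP and KLF factors, were found on either strand in 36 of the 47 windows (76.6%), in 58.2% of the windows of tested genes and in 32.9% of all windows. GGAATG, which TEAD factors bind, was found in 6 windows (12.8%), in 10.7% of those of tested genes and in 12.6% of all windows. The E-box CACCTG was also found in 6 (12.8%), compared with 15.2% and 17.1%. The AP-1 letters TGANTCA were found in 2 windows (4.26%), compared with 4.38% and 6.87%, and the TATA box TATAAA in 1 (2.13%), compared with 7.03% and 12.97%. The octamer ATGCAAAT of POU factors was found in 0 of the 47, in 1.40% of the windows of tested genes and in 1.61% of all windows. Among the 22 windows of genes lower in mESCs 16 held GGGCGG, among the 5 of genes higher in mESCs 4, and among the 13 of tested genes that were not called 11. None of these strings contains another, and a match describes letters and not binding.

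Genes that pass on or shape these signals were compared by lists of known partners. Of 35 partners of Eph receptors and ephrins (kinases, guanine nucleotide exchange factors, adaptors and proteases), 32 were tested, and 14 were lower and 4 higher in mESCs, with a median log2 fold change of -0.59. Of the tested partners 56.2% were thus called, beside 47.9% of all genes (25.0% lower and 22.8% higher). The largest differences on the lower side were those of Vav3 (-3.53, SE 0.50), an exchange factor, Adam10 (-2.78, SE 0.33), a protease that cleaves ephrins, the Src family kinase Lyn (-2.71, SE 0.51) and the exchange factor Arhgef5 (-2.42, SE 0.61). Arhgef5 became -3.47 without the mESC library of 8193825 counts. The 4 higher genes were Arhgef16 (2.16, SE 0.77, adjusted p = 0.0397), Arhgef15 (1.72, SE 0.42), Pick1 (1.26, SE 0.26) and the Src family kinase Yes1 (0.86, SE 0.23). Arhgef16, an exchange factor that binds Epha2, had 1, 15, 4 and 2 counts in MEFs and 36, 16 and 33 counts in mESCs, and its value became 3.27 without the MEF library of 9176467 counts. Its call was lost without the MEF library of 11441278, 7312679 or 6528643 counts or the mESC library of 8193825 or 7462710 counts (adjusted p = 0.0634 to 0.121).

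Of 43 partners of semaphorins and plexins, 40 were tested, and 21 were lower and 4 higher in mESCs, with a median log2 fold change of -1.02. This was 62.5% of those tested, beside 47.9% of all genes (25.0% lower and 22.8% higher). Mical2, an enzyme that oxidises actin, had 76.8, 43.9, 75.5 and 49.5 CPM in MEFs and 1.63, 3.64 and 2.01 CPM in mESCs (log2 fold change -4.66, SE 0.36, adjusted p = 2.36e-06). Farp1, an exchange factor (-3.67, SE 0.33), the integrin subunit Itgb1 (-3.29, SE 0.23) and Dpysl3, a collapsin response mediator (-3.17, SE 0.18), followed. Among the higher genes, another collapsin response mediator, Dpysl5, had 2, 6, 0 and 0 counts in MEFs and 66, 13 and 29 counts in mESCs (log2 fold change 3.96, SE 0.94, adjusted p = 0.00518). The Dpysl5 value became 5.37 without the MEF library of 9176467 counts and 3.25 without the mESC library of 8193825 counts. Rnd2 (2.09, SE 0.39), Mical3 (0.995, SE 0.29) and the kinase Pak1 (0.91, SE 0.22) were also higher, and the call of Mical3 was lost without the mESC library of 8057985 or 7462710 counts (adjusted p = 0.0752 and 0.0552).

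Other guidance families were compared in the same way. Of 29 genes of the Slit, Robo, netrin, RGM and FLRT families, 18 were tested, and 13 were lower and 0 higher in mESCs with edgeR (0 higher at an unadjusted p of 0.05 and 0 with DESeq2), with a median log2 fold change of -1.58. The called share was 72.2%, beside 47.9% of all genes (25.0% lower and 22.8% higher). Slit3, a secreted ligand of Robo receptors, had 12.5, 29.5, 18.9 and 35.6 CPM in MEFs and 0.542, 0.568 and 0.826 CPM in mESCs (log2 fold change -5.19, SE 0.48, adjusted p = 9.80e-06). Flrt2, a transmembrane ligand of Unc5 receptors, had 100.1, 127, 112 and 104 CPM in MEFs and 2.60, 3.41 and 4.25 CPM in mESCs (log2 fold change -5.02, SE 0.23, adjusted p = 6.83e-08). None of their MEF libraries overlapped with an mESC library. Robo2 (-3.39, SE 0.44) and Rgma, a ligand of neogenin (-3.20, SE 0.69), were also lower, and Rgma became -4.67 without the mESC library of 8193825 counts.

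**Figure D5:**
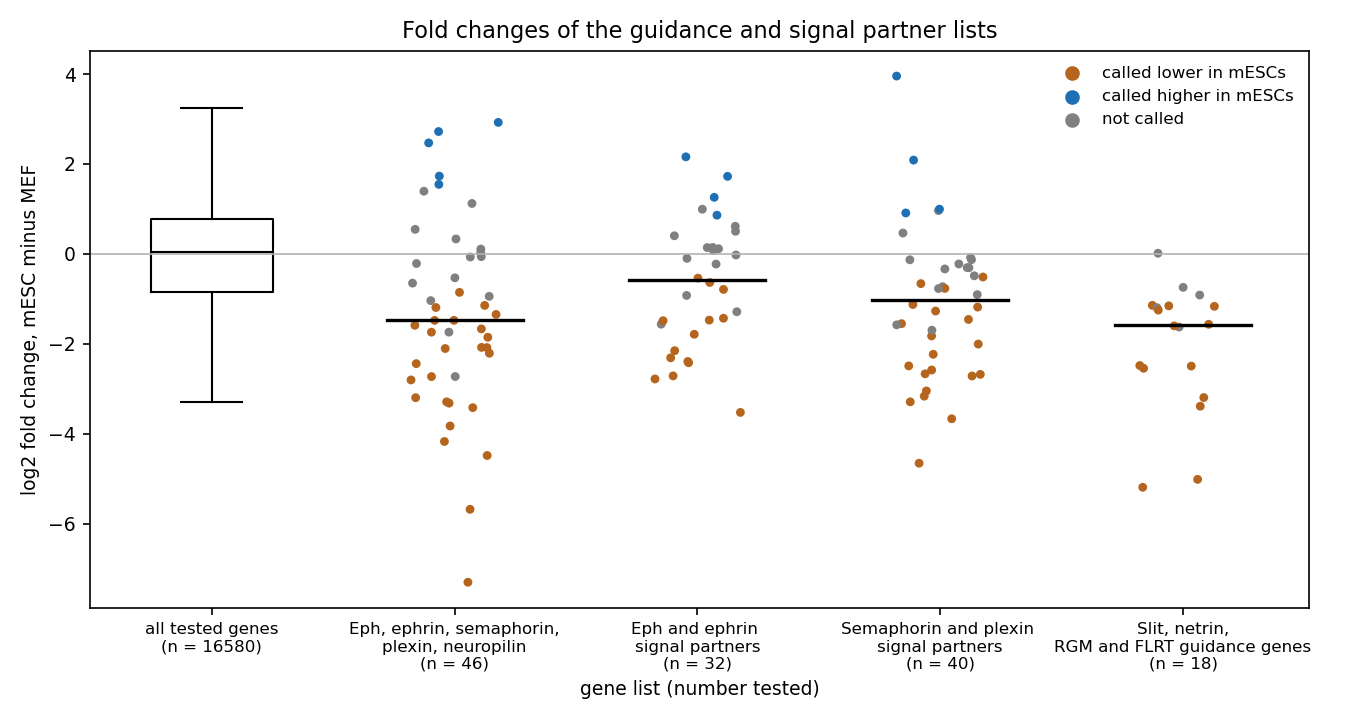
Fitted log2 fold changes of mESCs over MEFs for the tested genes of each list, with lines at the medians and a box (quartiles and median, whiskers to 1.5 times their distance) for all 16580 tested genes. The medians are -1.48 for the Eph, ephrin, semaphorin, plexin and neuropilin genes, -0.59 for the Eph and ephrin partners, -1.02 for the semaphorin and plexin partners and -1.58 for the other guidance genes, while that of all genes is 0.04.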

How the data were processed

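RNA was sequenced from 4 MEF and 3 mESC samples by a 3 prime method with unique molecular identifiers. The authors aligned reads to mm10 with STAR, collapsed identifiers with Je, counted exonic reads per gene with featureCounts and deposited whole-number counts without normalization. The annotation release and strand setting are not given in the sources used here. STAR is listed as version 2.4.2a in the submitters' processing notes, whereas the study's methods name a different version. The labels' extraction text names blood stem cells, and the study describes its cell sort for ATAC-seq, so whether these cells were sorted is not known. Libraries are named by their total counts (6528643 to 11441278), because no source ties the column numbers to the sample numbers.

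From the counts, genes were filtered by filterByExpr, scaled by TMM and compared with edgeR 4.0.16 (limma 3.58.1, R 4.3.3) by the two-sided quasi-likelihood test over all 16580 genes passing, 4 MEF against 3 mESC libraries, with no covariate and a threshold of 0.05 on the Benjamini-Hochberg adjusted p. CPM are counts scaled to the TMM-adjusted library size. The floor was 3 counts per library. Alternatives were DESeq2 1.42.0, library size alone, DESeq2 size factors, no filter beyond 1 count, at least 10 counts in every library of a cell type, a test against a fold change of 2, and each library left out. Leaving out both MEF libraries of a pair was chosen after seeing the data. On simulated counts of 16580 genes, 200 of which were given a log2 difference of 2, edgeR recovered 151 with 5 false calls and DESeq2 163 with 30. Those 200 differed in random directions, whereas 47.9% of genes were called in the data. The simulation therefore gives no error rate for data with so many differences.

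Every gene of the symbol rule could be named. Values per library are given for the called genes with the largest fold changes, the leading called gene of each class, the 6 tested genes with the smallest fold changes and untested genes above 3 counts, and of each partner list the 4 largest called in each direction. Other genes given per library were chosen after their values were seen. Genes and lists were chosen with earlier results of these data known. Gene coordinates are from GENCODE M21 (GRCm38), promoters from RefSeq (GRCm38.p6).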

Additional observations from a re-analysis of the deposited data

Results flagged for a closer look

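In 4 of the 53 genes, 1 of the 4 MEF libraries stood apart from the others by Dixon's test at its 95% critical value. Chance alone would give 2.65 for continuous normal values, a figure that does not hold for small counts such as those of Epha8, Plxnb3 and Ephb1. Efna3 was at 2.69 CPM in the MEF library of 11441278 counts and between 2.13 and 2.23 CPM in the others. Epha8 was at 0.120 CPM, which is 1 count, in the library of 9176467 counts and at 0 in the others, a pattern that the test always flags. Plxnb3 was at 0.599 CPM in the same library and between 0.152 and 0.192 CPM elsewhere. Ephb1 was low, at 0.305 CPM, in the library of 7312679 counts and between 0.863 and 0.959 CPM elsewhere. The mESC libraries were too few for this test.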

How the results depend on the processing

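Of the 31 called genes, 21 kept their call under all 13 alternatives, 4 lost it only against a fold change of 2, and 6 (Sema4c, Ephb6, Plxna1, Efnb3, Plxna3 and Sema6b) lost it under others as well. Of 850 values recomputed for 66 genes, 772 kept direction and side of the threshold, 57 lost and 5 gained a call, and 16 turned direction. Against a fold change of 2, lower genes numbered 17 of the 46 tested among the 53, and 9 of 32 tested Eph and ephrin partners. They numbered 12 of 40 tested semaphorin and plexin partners and 7 of 18 other guidance genes tested. Higher genes numbered 0 and 2 in the partner lists. Of all genes tested, 13.7% were lower and 10.3% higher against this fold change. With each library left out in turn, the 53 genes gave 4 to 5 higher and 22 to 26 lower, the Eph partners 3 to 4 and 11 to 14, the semaphorin partners 3 to 5 and 19 to 20, and the other guidance genes 0 and 10 to 16. The share of all tested genes called was then 40.8% to 46.5%. Genes above the floor in every library numbered 42 in MEFs and 41 in mESCs. These became 42 to 45 and 42 to 43 with a library left out, and 35 and 30 at over 10 counts. Without TMM scaling the ratio of the MEF to the mESC sums fell to 9.91 for ephrin-B ligands and to 2.38 for all 53. The sign turned for Efna1 (0.20 without TMM, -0.36 to 0.49 with a library left out), Efna3 (-0.35 to 0.73), Plxna4 (0.071 without TMM), Plxnb1 (0.22 without TMM, -0.29 to 0.11), Sema5b (-0.0070 without the filter, -0.26 to 0.30) and Sema6c (-0.13 to 0.37), none of which was called, and the cause was not tested. Without the MEF libraries of 11441278 and 7312679 counts 4 of the 53 genes were higher and 26 lower, and without the other pair 4 and 21, where the share of all genes called was not computed. No paired analysis was possible because no source describes a pairing of MEF with mESC libraries. Nor does any source tie the column numbers to the sample numbers. Counts near the floor limit what can be said of the 7 untested genes, of which Epha6 and Epha8 did not exceed 4 counts in any library.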

Other observations

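Several of these genes lie within 1000000 bases of each other. Ephb2 and Epha8 are 93430 bases apart on chromosome 4, where Ephb2 was lower in mESCs (-2.21) and Epha8 was near the floor in both cell types. Sema3b and Sema3f are 72270 bases apart on chromosome 9, with fold changes of -0.65 (not called) and -3.32 on the log2 scale. Sema4a, higher in mESCs (2.47), lies 810550 bases from Efna1, which was not called (-0.06).

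Of the 14 genes whose exons overlap those of another gene, 5 have over 5% of their exonic bases overlapped, all by an antisense gene. The largest share of 50-base transcript sequences found elsewhere in the annotation was 1.66% among the genes without such an overlap.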
